A study of Homo sapiens with 19 samples.

Results

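The genes GAL, AMTN, DHRS2, PLEKHN1, CADPS and SAMD11 are described here across 19 single-cell RNA libraries of human liver organoids. They are 6 of the 32703 gene identifiers present in every library's matrix and were matched by Ensembl identifier. They were chosen by their measured difference between organoids given transforming growth factor β1 (TGFB1) and their controls, so each value of that contrast is given as a description, with no test. All organoids were grown from W01, a wild-type human pluripotent stem cell line distributed by WiCell, so the whole study rests on 1 line. In 7 groups of 2 libraries, organoids were kept on an orbital shaker (OS) and sampled on day 25: untreated, TGFB1 at 10 ng/ml, TGFB1 control, PA at 500 µM, PA control, OA at 500 µM and OA control. In the other 2 groups, organoids were kept in ultra-low attachment (ULA) plates and sampled untreated on day 21 (n = 3) or day 34 (n = 2). TGFB1 and PA were given for 5 days, per the labels' protocols. The labels expand neither PA nor OA, and nothing in them says that replicates were separate cultures, so p-values below measure only the spread between these libraries, which may be technical. Each treatment had its own control libraries, and across the TGFB1, PA and OA experiments a difference between experiments and a difference between groups cannot be told apart.

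TGFB1 is a secreted growth factor that binds receptor kinases on the cell surface, and these activate SMAD proteins that enter the nucleus and regulate transcription. In the liver it is known for activating the collagen-producing stellate cells and for restraining hepatocyte growth. Of the 6 genes, GAL and AMTN encode secreted products, DHRS2 an enzyme, CADPS a protein of regulated secretion, PLEKHN1 a phospholipid-binding protein and SAMD11 a protein with a sterile alpha motif.

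The stretches before the transcription start of AMTN, DHRS2 and CADPS are shown because AMTN and DHRS2 were the 2 members with large rises, and CADPS the member with the larger fall, whose promoters were in the RefSeq table used (build GRCh38.p14, 5 of the 6 members matched, GAL not among them). Each is the 250 bases upstream of the start, written 5′ to 3′ in the direction of the gene, in lower case. Capitals mark matches on either strand to the motifs searched: the SMAD-binding element CAGAC or its reverse complement and, in DHRS2, TATAAA. The windows are chr4:70518319-70518568 on the plus strand for AMTN, chr14:23629865-23630114 on the plus strand for DHRS2 and chr3:62875417-62875666 on the minus strand for CADPS.
AMTN: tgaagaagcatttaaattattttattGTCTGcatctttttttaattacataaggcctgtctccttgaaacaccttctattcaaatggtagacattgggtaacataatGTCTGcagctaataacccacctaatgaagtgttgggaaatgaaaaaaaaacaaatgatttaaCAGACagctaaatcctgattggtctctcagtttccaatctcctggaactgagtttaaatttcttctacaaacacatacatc
DHRS2: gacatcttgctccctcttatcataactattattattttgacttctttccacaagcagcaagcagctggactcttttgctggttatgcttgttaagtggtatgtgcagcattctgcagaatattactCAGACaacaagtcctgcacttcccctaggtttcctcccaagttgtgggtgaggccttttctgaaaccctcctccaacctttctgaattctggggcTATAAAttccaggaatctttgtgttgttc
CADPS: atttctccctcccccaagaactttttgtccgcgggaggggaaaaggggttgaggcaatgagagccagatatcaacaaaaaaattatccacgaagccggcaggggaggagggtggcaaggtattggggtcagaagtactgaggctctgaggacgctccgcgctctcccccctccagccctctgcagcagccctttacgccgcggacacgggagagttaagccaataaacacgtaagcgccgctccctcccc
Counting from 0 at the start base, the CAGAC matches of AMTN began at -224, -143 and -81, and that of DHRS2 at -124. The TATAAA match of DHRS2 began at -29. The CADPS and SAMD11 windows, from 250 bases before to 50 bases after the start, held none of the 7 motifs searched on both strands, whose letters are given with their shares below, and no matches overlapped in these genes. The SAMD11 window, chr1:925481-925780, lies inside the GENCODE span given below for the gene, so it describes another start than that span's. PLEKHN1 held CAGAC at -176 and 21 and CCGCCC at -45. CAGAC was present in 45.3% of the 35116 RefSeq promoters of the same length, the GC-box letters CCGCCC in 45% and the TATA-box letters TATAAA in 11.5%. The other 4 motifs were present in 0.202% for the palindromic SMAD site GTCTAGAC, 7.71% for the AP-1 site TGANTCA, 1.85% for the cyclic AMP site TGACGTCA and 14% for the TEAD site GGAATG. The GC content of the windows was 33.7% for AMTN, 44% for DHRS2, 57.3% for CADPS, 71.3% for PLEKHN1 and 75% for SAMD11, beside a median of 58.7% over all promoters. These matches describe letters, not bound sites.

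The libraries held 7476533 to 92522222 unique molecular identifiers (UMIs, each counting 1 captured RNA molecule), and 3089 to 12427 cells per library passed the filter of at least 500 genes and at most 20% mitochondrial counts. TGFB1 control replicate 1 was shallow, with a median of 1310 UMIs per cell against 5635 in replicate 2 and 7092.5 and 5201.5 in the TGFB1 replicates. The matrices list different gene sets, with 33538 identifiers in the TGFB1 and PA experiments, 36601 in the untreated OS, OA and OA control libraries and 58721 in the ULA libraries. Levels set side by side across these sets may differ by annotation as well, and that part was not tested. No pair of libraries shared more than 0.553% of the smaller one's barcodes. The organoids' label was checked against hepatocyte markers: the summed level of 7 markers was 2588 and 3914 counts-per-million of UMIs (CPM) in the TGFB1 controls and 5359 and 4514 CPM with TGFB1, and none of the 7 was at 0 in any library. The sum was lowest in ULA day 34, at 83.5 and 769 CPM. The sums were higher with TGFB1, while 5 of the 7 genes fell (ALB, AFP, APOB, TTR and FGB) and 1, SERPINA1, rose. These calls are by edgeR's quasi-likelihood test at an adjusted p of 0.05, where 11.3% of all genes fell and 10.9% rose.

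In the contrast that chose the genes, 22.2% of the 19366 genes tested passed an adjusted p of 0.05 by edgeR's quasi-likelihood test, and no call of the 6 is read from it. The label under which they were grouped, genes moved most, held by rank for AMTN (rank 1 of the rises by log2 fold change), GAL (rank 8) and DHRS2 (rank 9). PLEKHN1 was rank 297 of the rises, CADPS rank 108 of the falls and SAMD11 rank 941 of the falls, so many other genes had larger differences than these 3.

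GAL encodes galanin, a neuropeptide that acts on G protein-coupled receptors, and lies at chr11:68683779-68691175 (GRCh38, GENCODE v44, plus strand). It stood at 287 and 225 CPM in the 2 TGFB1 libraries (12642 and 8832 UMIs) and at 1.71 and 3.41 CPM in their controls (27 and 178 UMIs). The groups did not overlap, and the ratio of the means was 100 (256 ± 43.8 CPM against 2.56 ± 1.2, SD, n = 2 each). Both ends of this contrast were extreme in the series: each of the 15 libraries of the other groups lay above both controls and below both TGFB1 libraries, from 8.87 to 103 CPM with a median of 26.5. The OA control held 91.2 and 103 CPM and untreated OS organoids 88.2 and 50.1. The PA control held 26.5 and 41.0 CPM, PA 8.87 and 30.7, and OA 25.5 and 20.7. ULA organoids held 20.1, 15.4 and 22.7 CPM on day 21 and 36.0 and 19.1 on day 34. By group mean the order was TGFB1, OA control (97.3 ± 8.65), untreated (69.2 ± 26.9), PA control (33.7 ± 10.3), ULA day 34, OA, PA, ULA day 21 and TGFB1 control. From the PA control down to ULA day 21, each group overlapped the next in range.

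AMTN encodes amelotin, a secreted protein of enamel-forming and junctional epithelium, and lies at chr4:70518569-70532743 on the plus strand. It stood at 54.7 and 14.1 CPM with TGFB1 (2406 and 551 UMIs), while the controls held 1 and 5 UMIs (0.0633 and 0.0957 CPM). The control level is too near 0 to give a ratio with any precision. Other libraries reached such levels too: PA held 4.08 and 22.8 CPM and the PA control 6.25 and 18.3, and these 4 libraries enclosed TGFB1 replicate 2. The untreated OS libraries held 74 and 0 UMIs and the OA controls 13 and 22. No AMTN UMI was found in either OA library, and the 5 ULA libraries held 0.138 to 0.271 CPM. The SD of the TGFB1 mean (34.4 ± 28.7, n = 2) was close to the mean itself.

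DHRS2 encodes a short-chain dehydrogenase/reductase that reduces dicarbonyl compounds, and lies at chr14:23630115-23645639 on the plus strand. Its 2 TGFB1 libraries held 51.8 and 41.1 CPM and the controls 0.316 and 0.593 CPM (5 and 31 UMIs). The groups did not overlap, and the ratio of the means was 102 (46.5 ± 7.56 against 0.455 ± 0.196, SD, n = 2 each). No library of another group came near the treated level, since the 15 others ranged from 0.326 to 6.05 CPM. The highest of these was ULA day 34 replicate 1 (6.05 CPM), then PA control replicate 2 (3.62) and ULA day 34 replicate 2 (3.4). The OA libraries were the lowest (0.352 and 0.326), which overlapped the TGFB1 controls.

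PLEKHN1, which carries pleckstrin homology domains and binds phospholipids, lies at chr1:966482-975865 on the plus strand. It stood at 5.97 and 5.41 CPM with TGFB1 (263 and 212 UMIs) and at 0.696 and 0.899 CPM in the controls (11 and 47 UMIs). The ratio of the means was 7.14, with no overlap. The controls were the exceptional libraries here. All 15 other libraries were above both controls, from 2.91 to 12.8 CPM, and 4 of them, among the ULA libraries, were above both TGFB1 libraries (12.8 and 12.4 on day 34, 10.3 and 7.59 on day 21). By mean, TGFB1 (5.69 ± 0.400) was rank 3 of the 9 groups and its control (0.798 ± 0.144) the lowest.

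CADPS encodes the calcium-dependent activator protein for secretion, which primes dense-core vesicles for release, and lies at chr3:62398346-62875416 on the minus strand. It stood at 5.45 and 6.61 CPM with TGFB1 (240 and 259 UMIs) and at 181 and 126 CPM in the controls (2862 and 6578 UMIs). The control mean was 25.5 times the treated mean (153 ± 39.0 against 6.03 ± 0.817, SD, n = 2 each), with no overlap. Again the control stood apart: both control libraries exceeded all 15 others. The PA experiment came next (82.0 and 63.2 CPM with PA, 72.5 and 61.1 in its control), then untreated OS organoids (14.4 and 17.7) and the OA control (11.4 and 10.9). OA (7.03 and 7.47) and ULA day 34 (6.46 and 8.19) were close to the TGFB1 level, and ULA day 21 was lowest (3.34, 1.60 and 3.38).

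SAMD11 encodes a sterile alpha motif protein known as a transcriptional regulator in photoreceptors, and lies at chr1:923923-944575 on the plus strand. It stood at 14.6 and 15 CPM with TGFB1 and at 95.8 and 59.0 CPM in the controls, a ratio of control to treated means of 5.23 with no overlap. The control level was shared with the PA experiment: the PA controls held 64.5 and 52.6 CPM and PA 59.8 and 40.4, so the ranges overlapped. ULA organoids held 30.4, 36.7 and 21.7 CPM on day 21 and 22 and 25.3 on day 34. Untreated OS organoids (21.9 and 11) and the OA control (10.9 and 19.5) enclosed the TGFB1 level, and OA was lowest (3.15 and 4.01).

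**Figure D1:**
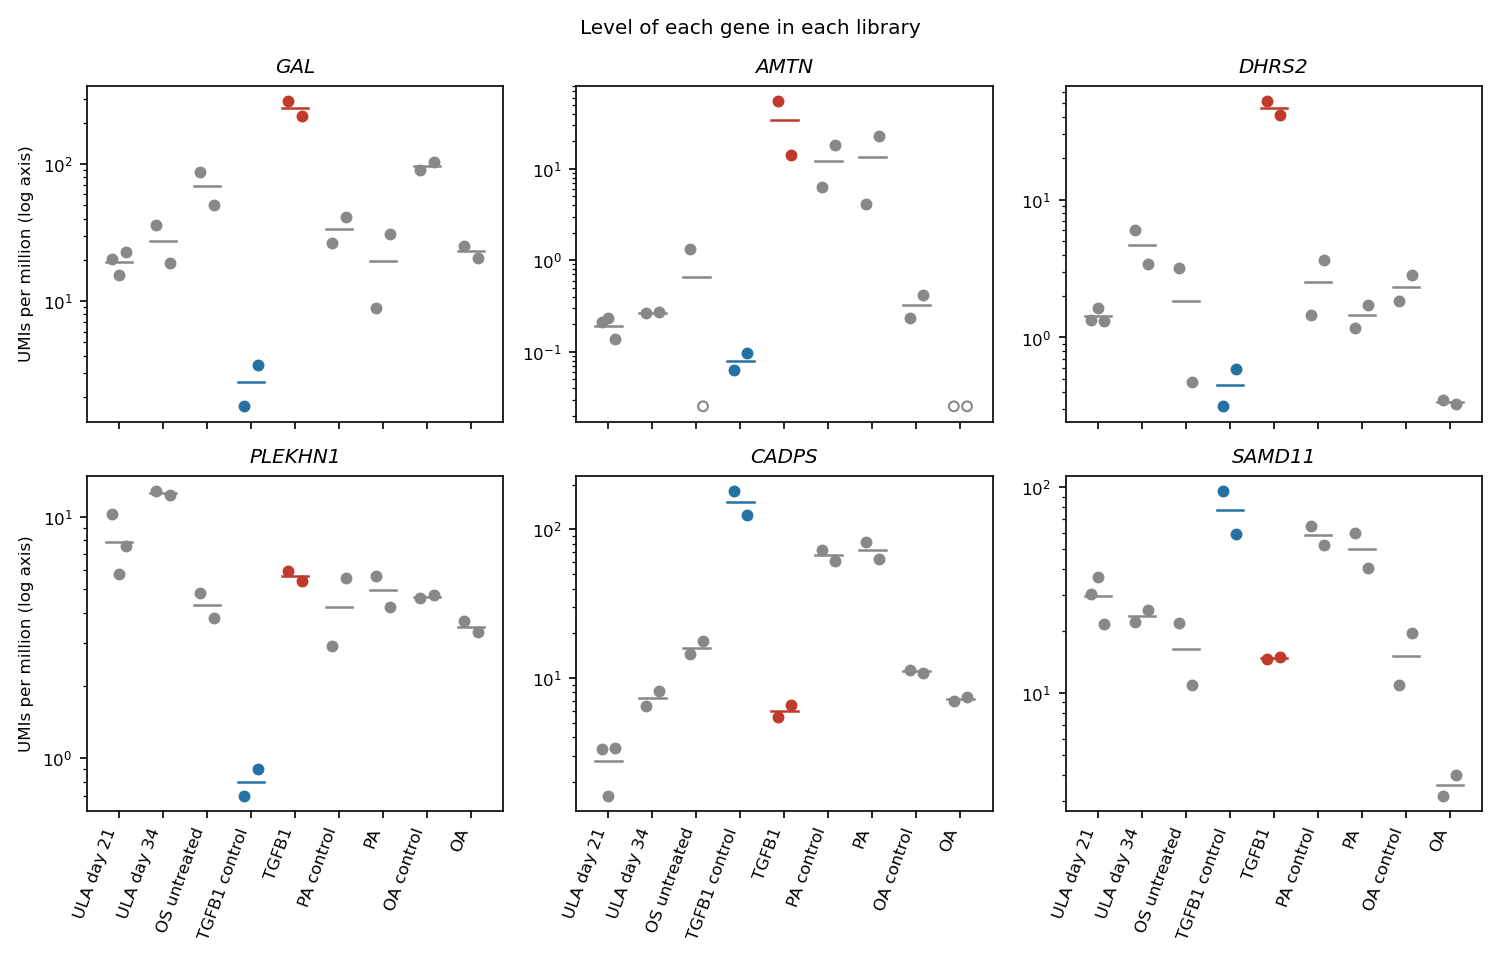
Level of each of the 6 genes in each library as CPM on a log axis, by group. Each point is 1 library, the bar is the group mean, and open circles near the lower axis are libraries with 0 UMIs. TGFB1 libraries (red) are highest for GAL and DHRS2, and their controls (blue) are lowest for GAL and PLEKHN1 and highest for CADPS.

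The fitted log2 fold changes of TGFB1 over control were 8.72 for AMTN (SE 1.44), 6.73 for GAL (SE 0.590), 6.68 for DHRS2 (SE 0.678), 2.95 for PLEKHN1 (SE 0.317), -4.46 for CADPS (SE 0.255) and -2.17 for SAMD11 (SE 0.325). The genes were chosen on this contrast, which can make both value and SE too favourable, so neither is to be read as a test. Leaving out the shallow TGFB1 control replicate 1 gave 8.55, 6.33, 6.38, 2.75, -4.29 and -1.90 in the same order. Leaving out TGFB1 replicate 1, which held most AMTN UMIs, lowered AMTN to 7.42. Without TGFB1 control replicate 2, GAL rose to 7.54 and DHRS2 to 7.49.

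The share of cells with at least 1 UMI showed whether a level came from many cells or few. With TGFB1, GAL was found in 54.8% (95% exact interval 53.5 to 56.0) and 44% (42.8 to 45.2) of cells, against 0.208% (0.127 to 0.321) and 1.2% (0.979 to 1.45) in the controls. DHRS2 was found in 25.7% (24.6 to 26.8) and 17.9% (17.0 to 18.8) of TGFB1 cells, but in 3 and 27 control cells. UMIs of both genes were thus found in many more treated than control cells. Free RNA in the droplets, which adds UMIs to cells that do not make a transcript, was not measured, so these are shares of cells with a UMI, not of cells expressing the gene. CADPS went the other way, found in 21.9% (21.1 to 22.8) and 42.3% (41.2 to 43.4) of control cells and in 3.33% (2.89 to 3.82) and 3.35% (2.93 to 3.80) with TGFB1. SAMD11 was found in 13.1% (12.4 to 13.7) and 24.9% (24.0 to 25.8) of control cells and in 8.93% (8.22 to 9.68) and 7.66% (7.05 to 8.31) with TGFB1. These shares follow depth as well as expression, and the intervals cover counting error only.

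With every cell thinned to 1000 UMIs and shallower cells left out (2927 and 190 control cells, 127 and 101 TGFB1 cells), the order of the groups was kept for these 4 genes. GAL was then found in 19.2% and 15.9% of cells with TGFB1 and 0.150% and 0.265% without, and DHRS2 in 5.06% and 3.44% against 0.0299% and 0.0361%. CADPS was found in 16.2% and 11.4% of control cells against 0.443% and 0.706% with TGFB1, and SAMD11 in 8.88% and 5.72% against 1.5% and 1.6%. PLEKHN1 was sparse throughout, in 4.13% (3.64 to 4.67) and 2.97% (2.58 to 3.4) of unthinned TGFB1 cells and in 11 and 43 control cells.

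AMTN had another distribution. It was found in 171 of 6002 TGFB1 cells of replicate 1 (2.85%, exact interval 2.44 to 3.30) and 74 of 6904 of replicate 2 (1.07%, 0.843 to 1.34), with 14.1 and 7.45 UMIs per positive cell and as many as 239 and 61 in a cell. In replicate 1, 31 cells with at least 10 UMIs held 88.9% of all AMTN UMIs, and in replicate 2, 17 cells held 75.5%. The 1% of cells with most AMTN (60 and 69 cells) held 94.7% and 99.1% of its UMIs. In the PA experiment that share was 99.4% in PA control replicate 2 (62 positive cells, up to 170 UMIs in a cell) and 96.0% in PA replicate 2 (135 positive cells, up to 130). Where little more than 1% of cells are positive, as in TGFB1 replicate 2 and PA control replicate 2, a share near 100% is forced. GAL (12.9% and 13.8%) and DHRS2 (11.3% and 14.5%) had far lower shares in the top 1% of TGFB1 cells. The AMTN level of the TGFB1 libraries therefore rested on few cells.

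**Figure D2:**
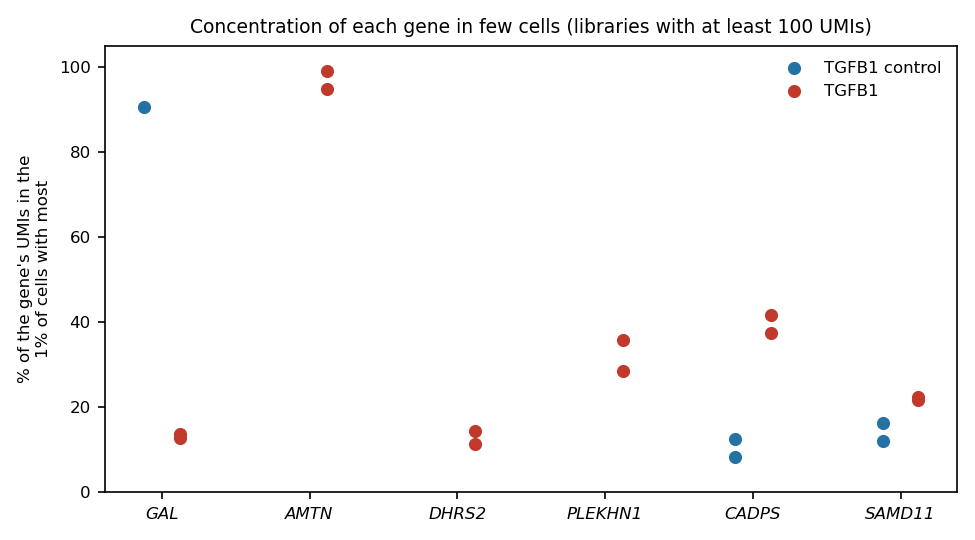
Share of a gene's UMIs (percent) held by the 1% of cells with most of it, for TGFB1 (red) and TGFB1 control (blue) libraries with at least 100 UMIs of the gene, 1 point per library. AMTN lies at 94.7% and 99.1% with TGFB1, while GAL and DHRS2 lie between 11.3% and 14.5%. GAL of TGFB1 control replicate 2, with 178 UMIs, lies at 90.4%, and there, as for AMTN of TGFB1 replicate 2, few positive cells alone force a high share.

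To see which cells carried the genes, cells with EPCAM, an epithelial adhesion molecule, and no COL1A2 or COL3A1 UMI were compared with cells with either collagen transcript and no EPCAM UMI, within the same libraries. EPCAM-positive cells made up 68.3% and 77.6% of cells in the TGFB1 libraries and 48.8% and 85.9% in the controls, and collagen-positive cells 8.55% and 9.56% against 4.57% and 3.92%. Cells with neither made up 44.7% of the shallow control replicate 1 and 4.91% of replicate 2. Between EPCAM-positive and collagen-positive cells of the TGFB1 libraries, 40.1% of the 18747 genes tested passed edgeR's quasi-likelihood test. In EPCAM-positive cells 22.5% were higher and 17.6% lower. In the control libraries 31.9% passed, 18.9% higher and 13% lower. The count filter was set over all libraries and classes of the fit. Genes with few UMIs in the controls, such as DHRS2, AMTN and PLEKHN1, were thus tested there because of their levels elsewhere. No count of the 6 is read from the controls or from the TGFB1 libraries. Opposite orders of the classes in every TGFB1 and every control library were seen in 8.72% of all genes tested. These TGFB1 and control libraries also served in choosing the 6 genes, and EPCAM-positive cells were the largest class in each of them. The choice itself can therefore favour an order of the classes, although the split of cells used none of the 6. The class values of the 6 are a description, and no p-value is given for them.

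GAL UMIs were found in both classes with TGFB1, at 310 and 247 CPM in EPCAM-positive and 141 and 112 CPM in collagen-positive cells. The log2 difference was 1.04 (SE 0.151). In the controls the order was turned, at 1.33 and 2.62 CPM in EPCAM-positive and 13.4 and 16.5 CPM in collagen-positive cells. The log2 difference was -2.82 (SE 0.322). It rested on few GAL UMIs, 27 and 178 in all control cells. Of these, 44.4% and 67.4% lay in EPCAM-positive and 37% and 19.7% in collagen-positive cells. In control replicate 2, the 1% of cells with most GAL held 90.4% of its UMIs. GAL was found in 59% and 47% of EPCAM-positive and 27.3% and 27.4% of collagen-positive TGFB1 cells, with median depths of 7340 and 5173.5 against 4748 and 5757 UMIs. In both classes the treated libraries were above the control libraries. The part of free RNA in the collagen-positive values was not tested.

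With TGFB1, 81.9% and 89.7% of DHRS2 UMIs lay in EPCAM-positive cells and most others in cells with EPCAM and collagen transcripts together. DHRS2 stood at 59.1 and 48.6 CPM in EPCAM-positive and 4.69 and 2.26 CPM in collagen-positive cells, a log2 difference of 3.90 (SE 0.276). It was found in 30.4% and 20.6% of EPCAM-positive but 2.73% and 1.21% of collagen-positive cells. In the controls DHRS2 was at 0 and 0.414 CPM in EPCAM-positive and 1.34 and 1.88 CPM in collagen-positive cells, which is 0 and 19 against 1 and 4 UMIs. These are too few to read an order, and no test is given for them.

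GAL and DHRS2 were not carried in a constant proportion. In EPCAM-positive TGFB1 cells there were 5.24 and 5.08 GAL UMIs for each DHRS2 UMI, against 30.1 and 49.4 in collagen-positive cells (over 15 and 9 DHRS2 UMIs).

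PLEKHN1 was also higher in EPCAM-positive TGFB1 cells, at 6.96 and 6.21 CPM against 1.56 and 1.01 (log2 difference 2.28, SE 0.404). In the controls it stood at 0.667 and 0.872 CPM against 0 and 0.470, where the collagen-positive cells held 0 and 1 UMIs, too few for a test. CADPS was higher in EPCAM-positive cells of the controls, at 181 and 132 CPM in EPCAM-positive and 68.5 and 8.0 CPM in collagen-positive cells. The log2 difference was 2.55 (SE 0.311), and ranged from 1.52 to 3.93 on leaving out a control replicate. Control cells with neither marker held 199 and 120 CPM of CADPS, and 39.2% and 1.73% of its UMIs. With TGFB1 it stood at 5.31 and 6.85 CPM against 7.82 and 5.03, with no consistent order. Within EPCAM-positive cells, both TGFB1 libraries were thus below both control libraries.

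AMTN was not confined to either class with TGFB1, at 45.2 and 11.9 CPM in EPCAM-positive and 69.1 and 6.28 CPM in collagen-positive cells. The 2 libraries differed in direction (log2 difference -0.17, SE 0.382). SAMD11 stood at 13.7 and 14.1 CPM in EPCAM-positive and 18.8 and 21.1 CPM in collagen-positive TGFB1 cells (log2 difference -0.62, SE 0.319). In the controls it stood at 89.5 and 60.3 CPM against 71.2 and 37.2 (log2 difference 0.55, SE 0.313). Neither SAMD11 value is read as a difference between the classes, since these libraries also served in choosing the genes.

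**Figure D3:**
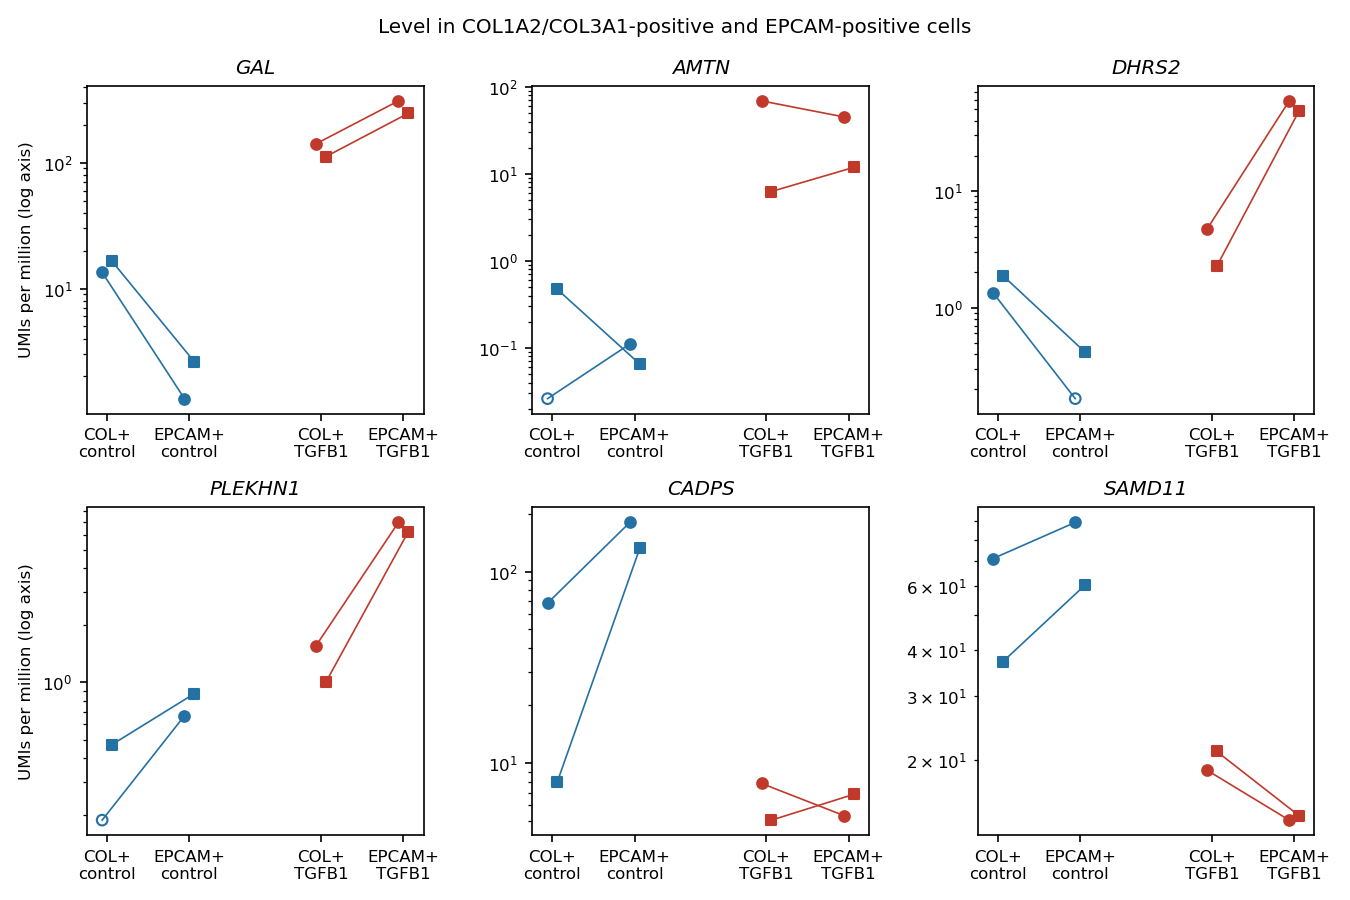
Level of each gene (CPM, log axis) in cells positive for COL1A2 or COL3A1 and in EPCAM-positive cells, for TGFB1 control (blue) and TGFB1 (red) libraries. Circles are replicate 1, squares replicate 2, lines join the 2 classes of a library and open symbols near the lower axis are 0 UMIs. GAL and DHRS2 slope up toward EPCAM-positive cells with TGFB1, and GAL slopes down in the controls, where DHRS2 has few UMIs.

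The remaining comparisons did not choose the genes, and each was tested by edgeR's quasi-likelihood method with Benjamini-Hochberg adjustment over all genes. PA against its control called none of the 6 genes, where 0.0465% of 19366 genes were called. Every adjusted p of the 6 was 1, and the log2 fold changes were -0.70 for GAL (SE 0.461), -0.86 for DHRS2 (SE 0.579), 0.17 for CADPS (SE 0.221), 0.21 for PLEKHN1 (SE 0.286), -0.18 for SAMD11 (SE 0.313) and 0.18 for AMTN (SE 0.881). At an unadjusted p under 0.05, 540 of all genes passed in that comparison. The 2 libraries of PA and of its control overlapped for every one of the 6. The share of all genes with such overlap was not counted, so this only describes the 6.

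OA against its control called 3 of the 6, all lower, where 43.3% of all genes were called, 21.7% higher and 21.6% lower. GAL fell from 91.2 and 103 to 25.5 and 20.7 CPM (log2 fold change -1.73, SE 0.465, adjusted p = 0.0090). The OA libraries lay below both controls, but the call was lost without OA replicate 2 (adjusted p = 0.0708). DHRS2 fell from 1.85 and 2.82 to 0.352 and 0.326 CPM (log2 fold change -2.42, SE 0.624, adjusted p = 0.0072), and SAMD11 from 10.9 and 19.5 to 3.15 and 4.01 CPM (log2 fold change -1.72, SE 0.329, adjusted p = 0.0010). CADPS (log2 fold change -0.28, adjusted p = 0.332) and PLEKHN1 (-0.073, adjusted p = 0.854) did not pass, though their OA libraries also lay below both controls. AMTN, with 0 UMIs in OA and 35 in its control, was at least 11.5-fold lower by a floor of 3 UMIs over the group, and did not pass (adjusted p = 0.123), although 4 of 11 alternative analyses called it.

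Collagen-positive cells made up 1.94% and 1.18% of OA cells and 35.3% and 37.5% of OA control cells. The summed level of 7 mesenchymal markers was 127 and 99.3 CPM against 2413 and 3980. The part of this difference in makeup in the falls of GAL, DHRS2 and SAMD11 was not tested.

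The OA control and untreated OS organoids, with no treatment named for either, gave no call for the 6 genes, where 0.573% of all genes were called, 0.0826% higher and 0.491% lower. Log2 fold changes were 0.65 for GAL (SE 0.453), 0.45 for DHRS2 (SE 0.536), -0.38 for CADPS (SE 0.224), 0.26 for PLEKHN1 (SE 0.274), 0.027 for SAMD11 (SE 0.314) and -1.02 for AMTN (SE 1.18), and the smallest adjusted p was 0.459. At an unadjusted p under 0.05, 2822 of all genes passed there. The ranges did not overlap for GAL (91.2 and 103 CPM in the OA control, 88.2 and 50.1 untreated) or CADPS (11.4 and 10.9 against 14.4 and 17.7). How many of all genes had separate ranges was not counted. AMTN had no UMI in untreated replicate 2.

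Between ULA day 34 and day 21, DHRS2 and CADPS were higher on day 34, where 15.6% of 22261 genes were called, 8.43% higher and 7.19% lower. DHRS2 stood at 6.05 and 3.4 CPM on day 34 and 1.34, 1.65 and 1.32 on day 21 (log2 fold change 1.60, SE 0.314, adjusted p = 0.0174). CADPS stood at 6.46 and 8.19 against 3.34, 1.60 and 3.38 CPM (log2 fold change 1.28, SE 0.350, adjusted p = 0.0482). Neither gene's ranges overlapped, nor did those of PLEKHN1 and AMTN, which were not called. Each of the 2 calls was lost by edgeR without any 1 of the day 21 replicates, with an adjusted p of up to 0.0958 for DHRS2 and 0.131 for CADPS. GAL (0.38, adjusted p = 0.404), PLEKHN1 (0.56, adjusted p = 0.172), SAMD11 (-0.44, adjusted p = 0.238) and AMTN (0.36, adjusted p = 0.568) did not pass. Per the labels, organoids of day 34 were washed once more and trypsinized for a further 10 minutes, which cannot be told apart from age. Squamous markers summed to 761 and 1993 CPM on day 34 and 22.5 to 39.3 on day 21, and their part in these 2 differences was not tested.

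**Figure D4:**
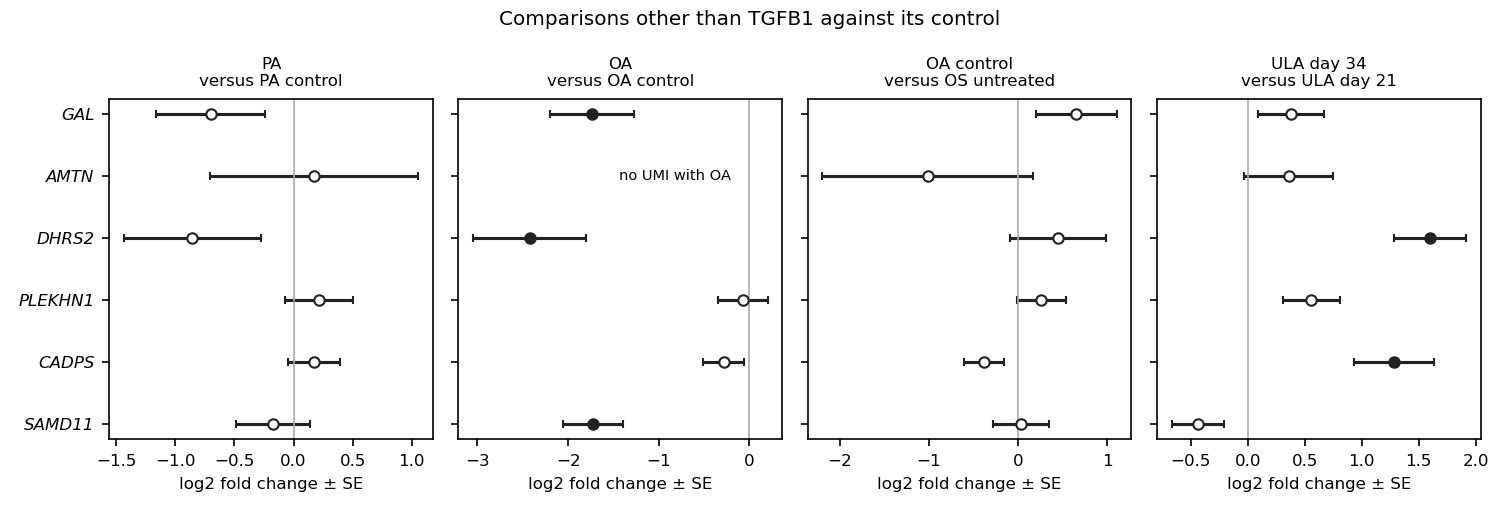
Log2 fold change of each gene, with a standard error derived from edgeR's F statistic, in the 4 comparisons that did not choose the genes. Filled points passed an adjusted p of 0.05, which 3 genes did for OA, 2 for ULA day 34 and none for PA or the OA control. AMTN has no UMI with OA and is given as text.

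Cells positive for a gene were compared with negative cells of the same class and library, and the 5 other genes at 50 CPM or more with the largest smaller ratio over the 2 libraries were taken, as a description with no test. In EPCAM-positive TGFB1 cells the companions of GAL were CXCL14, DHRS2, TIMP3, SERPINE2 and S100A4. CXCL14, a chemokine, stood at 61.4 and 56.5 CPM in GAL-positive against 26.7 and 20.4 CPM in GAL-negative cells, and DHRS2 at 69.9 and 60.6 against 40.5 and 35.9. The companions of DHRS2 were GAL (409 and 353 against 257 and 214 CPM), ADAM19, SERPINE2, S100A4 and CITED4, so each of the pair was named for the other. Positive cells were somewhat deeper, with medians of 7659 and 5434 UMIs against 6912 and 4988 for GAL. Over TGFB1 cells of all classes thinned to 1000 UMIs, DHRS2 was found in 6.47% and 5.35% of GAL-positive and 4.72% and 3.08% of GAL-negative cells. The part of cell class in this difference was not tested.

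The 74 and 49 EPCAM-positive TGFB1 cells with AMTN were marked by the succinate receptor gene SUCNR1 (106 and 89.4 CPM against 16.2 and 13.1), the tropomyosin gene TPM2 (326 and 268 against 71.6 and 55.2), CXCL14 (210 and 159 against 45.5 and 37.4), PCDH9 and SNCAIP. Those of PLEKHN1 were SFN, the epithelial 14-3-3 protein stratifin (86.3 and 54.5 against 47.2 and 37.5 CPM), ANXA1, PLAUR, PLAU and GPRC5A. PLAU and PLAUR encode urokinase and its receptor. In EPCAM-positive control cells, CADPS went with the coagulation factor gene F5 (84.1 and 60.6 against 45.1 and 34.2 CPM), the endothelin gene EDN3 (163 and 200 against 93.4 and 107), CHGA, HOXB3 and PIK3AP1. SAMD11 went with CHGA, the mitotic genes TOP2A (218 and 98.2 against 118 and 52.6 CPM), NUSAP1 and TPX2, and ALKAL2. CHGA in both lists rests on 23 cells in each control library, with up to 380 and 266 UMIs in a cell, so it describes few cells.

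Most genes that work with CADPS in regulated secretion did not pass. Of 19 tested between TGFB1 and control, 4 rose (UNC13A, SYT1 by a log2 fold change of 2.41, SCG5 by 2.17 and CPE by 1.31) and 2 fell (SNAP25 with -1.45 and UNC13B with -0.63), where 10.9% of all genes rose and 11.3% fell. The list's median was 0.21 beside -0.046 over all genes. The nearest paralog, CADPS2, stood at 17.5 ± 3.29 CPM in control and 20.9 ± 4.54 with TGFB1 (SD, n = 2 each) and did not pass (log2 fold change 0.43, SE 0.235, adjusted p = 0.208). The 10 enteroendocrine markers summed to 98.9 and 45 CPM in the controls and 31.6 and 20.7 with TGFB1, and 0 of 9 tested passed. They summed to 530 to 1051 CPM in the PA experiment. There CADPS stood at 61.1 to 82.0 CPM, against 181 and 126 in the TGFB1 controls. Among EPCAM-positive control cells, CHGA was found in 0.519% and 0.481% with CADPS and 0.481% and 0.176% without. The part of enteroendocrine cells in the CADPS values was not tested.

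Around GAL, 5 genes of its family and receptors were tested and 1 fell, the kisspeptin receptor gene KISS1R (16 ± 3.37 to 3.08 ± 0.530 CPM, log2 fold change -2.20). The galanin receptor genes GALR1, GALR2 and GALR3 did not pass. A list of secretory calcium-binding phosphoprotein genes, the family of AMTN, also held FAM20C, which is not of that family. Of its 6 genes tested, ODAM (log2 fold change 1.2) and FDCSP (2.90) rose, where 10.9% of all genes did. The 6 ameloblast markers summed to 6.59 and 8.95 CPM with TGFB1 and 4.68 and 3.50 in the controls, and AMELX was at 0 in all 4 libraries and AMBN in 3 of 4. Of 13 short-chain dehydrogenase genes, DHRS3 (0.95) and HSD17B11 (1.88) rose and none fell, where 10.9% of all genes rose and 11.3% fell. DHRS4 and DHRS4L2, on the same chromosome as DHRS2, had log2 fold changes of -0.21 and 0.14 and did not pass.

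PLEKHN1 and SAMD11 lie close together on chromosome 1 and moved in opposite directions with TGFB1, and the 2 genes between them, NOC2L (log2 fold change -0.025) and KLHL17 (-0.40), did not pass. Of 7 neighbours tested, HES4 (1.03) and ISG15 (1.69) rose, where 10.9% of all genes did. SAMD11 overlaps NOC2L, and PLEKHN1 overlaps PERM1, on opposite strands. The strand setting of the counting is not given in the sources used here, so reads of each overlap may be uncertain. Under OA, NOC2L (-0.72) and KLHL17 (-0.99) fell beside SAMD11, and RNF223 (1.88) rose, where 21.6% of all genes fell and 21.7% rose.

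Of 12 genes known to respond to or relay TGF-β signals, 9 rose with TGFB1, among them LTBP2 (log2 fold change 3.86), TGFBI (2.64, from 41.1 ± 0.0806 to 224 ± 7.40 CPM), PMEPA1 (2.23) and TGFB1 itself (1.79), and none fell, where 10.9% of all genes rose. The list's median was 1.69. With PA, where only 0.0465% of all genes were called, none of these 12 and none of the secretion, GAL, AMTN, DHRS2 or neighbour genes passed. With OA, where 43.3% of all genes were called, 3 of the 12 rose, SKIL (0.94), SMAD3 (1.05) and TGFBR2 (0.76). A further 4 fell, TGFBI (-2.56), LTBP2 (-1.95), CTGF (-0.96) and TGFB1 (-0.56), and the list's median was -0.011. With OA, 6 of the 13 short-chain dehydrogenase genes rose, among them DHRS9 (5.20), HSD17B11 (2.16) and RDH10 (1.95), while DHRS4L2 fell, where 21.7% of all genes rose and 21.6% fell. Of the 6 genes tested from the phosphoprotein list, ODAM (-2.87) and FDCSP (-2.72) fell with OA and ENAM (2.88) rose. Of the 19 secretion genes, 5 rose, among them CADPS2 (1.17), and 6 fell.

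Other marker lists moved with TGFB1 beside the 6 genes. Cycling markers summed to 273 and 177 CPM in control and 19.8 and 20.5 with TGFB1, gut markers to 505 and 476 against 81.6 and 97.8, squamous markers to 3.29 and 7.81 against 58.2 and 48.7, and mesenchymal markers to 618 and 600 against 1480 and 1837. All 4 cycling genes fell, where 11.3% of all genes did. Of the 6 squamous genes, 4 were higher with TGFB1 but only TP63 and SFN passed, where 10.9% of all genes rose. SFN alone stood at 47.2 and 37.5 CPM in EPCAM-positive TGFB1 cells without PLEKHN1, and KRT14 was at 0 in TGFB1 replicate 2. The part of these marker lists in the values of the 6 genes was not tested.

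Likeness was measured as Pearson's r of log2(CPM + 1) over the 14 OS libraries, which share the 3 experiments and their depths, and is given as a description. These include the 4 TGFB1 and TGFB1 control libraries whose difference chose the 6 genes, so genes with a large difference there are favoured. The genes most like GAL were ADAM19 (0.960) and TRBC2 (0.947). Those most like DHRS2 were AC103740.2 (0.971), AL358334.2 (0.970) and FOXS1 (0.969), those most like AMTN S100A2 (0.965), MIR4435-2HG (0.958) and YIPF3 (0.939), and those most like PLEKHN1 SEC14L2 (0.917), SULF2 (0.912) and PYGL (0.905). CADPS was most like FGFR3 (0.974), SSTR3 (0.973) and HABP2 (0.969), and SAMD11 most like LIMCH1 (0.984), RBPJ (0.982) and ZNF136 (0.978). ADAM19, most like GAL over libraries, was also a companion of DHRS2 within EPCAM-positive cells.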

How the data were processed

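Droplet single-cell RNA libraries (10x Genomics 3′ version 3) were deposited as matrices of raw UMI counts per gene and barcode, with no normalization, per the file headers. The submitters' processing notes name bcl2fastq, Cell Ranger 3.0.2, Scanpy and GRCh38; headers of the untreated OS, OA and OA control matrices name Cell Ranger 6.0.2, per the file headers. The members and all gene lists were chosen with earlier results of these data known. Genes named are the 6 members, fixed partner lists, and the 5 companions and 5 most alike genes by rank. The cell filter asked for 500 genes or more and no more than 20% mitochondrial counts. CPM divides by UMIs over the 32703 shared identifiers. Counts summed per library (or per library and cell class, with library as block and at least 50 cells of each class) were tested in edgeR 4.0.16 (TMM, filterByExpr, quasi-likelihood), with the 14 OS libraries in 1 fit and the 5 ULA libraries apart. Doublets were kept, since Scrublet's automatic threshold marked almost none in most libraries; removing the highest scores (0.8% per 1000 barcodes) was an alternative. Each SE beside a fitted log2 value was derived as its absolute size divided by the square root of edgeR's F statistic. Scripts were tested on simulated data. Alternatives were DESeq2 1.42.0, RLE scaling, no count filter, stricter cells (1000 genes, 10% mitochondrial), classes by 2 UMIs, thinning, and leaving out replicates. The genome annotation was GENCODE v44.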

Additional observations from a re-analysis of the deposited data

Results flagged for a closer look

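GAL, SAMD11 and, on few control UMIs, DHRS2 had opposite orders of the cell classes by CPM with and without TGFB1, in every library of each group. Of the 18747 genes tested, 8.72% had such an order. These libraries also served in choosing the genes, and the choice itself can favour an order of the classes. The difference of these differences was not tested. GAL was higher in EPCAM-positive than in collagen-positive cells of both TGFB1 libraries (log2 difference 1.04). It was lower in both control libraries (-2.82), which held 27 and 178 GAL UMIs. SAMD11 ran the other way, lower in EPCAM-positive cells of the TGFB1 libraries (-0.62) and higher in those of the controls (0.55). Neither value is read as a difference between the classes. DHRS2 had a log2 difference of 3.90 in the TGFB1 libraries and a fitted value of -2.51 in the controls, where 0 and 19 UMIs in EPCAM-positive and 1 and 4 in collagen-positive cells were too few to read an order.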

How the results depend on the processing

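The 6 genes kept their direction between TGFB1 and control in every alternative run, with log2 fold changes of 6.33 to 7.54 for GAL, 7.42 to 9.39 for AMTN, 6.38 to 7.49 for DHRS2, 2.75 to 3.34 for PLEKHN1, -4.60 to -4.29 for CADPS and -2.38 to -1.90 for SAMD11. The genes were chosen for this difference in these same libraries, so a kept direction is a description and lends it no support. Counts of called genes over the whole table moved more, and the cause was not tested. Leaving out a replicate gave 1704 to 5554 genes for TGFB1 (4295 with all), 0 to 20 for PA (9), 5171 to 6570 for OA (8378), 0 to 164 for the OA control against untreated (111), 697 to 7166 for ULA (3476), and 4831 to 5387 (7513) and 2161 to 5238 (5982) for the cell classes in TGFB1 and control libraries. Where PA gave 0, 514 and 688 genes passed an unadjusted p under 0.05, and where the OA control gave 0, 1675 and 1684 did. For PA, DESeq2 called 51, no count filter 162 and a fit of the 2 groups only 16; for the OA control against untreated these were 701, 523 and 0 (2433 at an unadjusted p under 0.05). The replicate numbers were treated as not pairing the libraries. Correlations of same-numbered deviations ran from -0.44 to 0.0887, which cannot settle whether they do. A replicate block called 84 genes for PA, 0 for the OA control (865 unadjusted) and 2 for ULA, where DHRS2 (adjusted p = 0.206) and CADPS (adjusted p = 0.203) were not among them by edgeR. With RLE scaling the split of calls between classes in control libraries was 2713 higher and 2877 lower against 3536 and 2446, and the median of all genes moved by -0.13; in TGFB1 libraries it moved by -0.12. DESeq2 moved these medians by -0.24 and -0.17. Between groups, directions that reversed were of differences that passed in neither analysis. AMTN for PA was -0.17 with stricter cells and -0.0038 with the replicate block, and AMTN for ULA -0.16 with stricter cells. The others reversed on leaving out a replicate, with ranges for PA of -1.57 to 1.13 (AMTN), -1.19 to 0.032 (DHRS2), -0.051 to 0.77 (PLEKHN1), -0.016 to 0.37 (CADPS) and -0.47 to 0.083 (SAMD11). Single replicates left out also gave -0.29 for AMTN and 0.052 for SAMD11. PLEKHN1 for OA ranged from -0.17 to 0.015. For the OA control against untreated, AMTN ranged from -1.80 to 6.78, DHRS2 from -0.25 to 2.36 and SAMD11 from -0.35 to 0.53 (also -0.33), and GAL for ULA from -0.14 to 0.75, where it passed without day 34 replicate 2 (adjusted p = 0.0221 by edgeR). Between classes, where no test of the 6 is read, AMTN ranged from -0.61 to 0.84 and CADPS from -0.55 to 0.37 with TGFB1. In controls, AMTN ranged from -2.80 to 3.38. Depth limits AMTN, PLEKHN1 and DHRS2 in control cells most, where a library held 1 to 47 UMIs.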
